A study of Homo sapiens with 6 samples.

Results

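The GSE1 sites described here are 1575 peaks that were called in NB4 cells after treatment with MC2580 and that no peak of the vehicle-treated cells overlapped by even 1 bp. NB4 is an established human acute promyelocytic leukaemia line, and MC2580 is an inhibitor of the histone demethylase LSD1. The peaks were chosen by this absence from the DMSO list, on chromosomes 1 to 22 and X except 7, 8, 9, 12 and 19. Reads of the DMSO library at these sites were not examined, and a site without a called peak may still hold GSE1 signal. The study also filtered its own class of regions bound only after MC2580 by read density, which was not done here. On these chromosomes the MC2580 list held 3976 peaks, so that 39.6% had no DMSO peak (MC2580-only peaks) and the other 2401 had one (overlapping peaks). The DMSO list held 6874 peaks there without an MC2580 peak (DMSO-only peaks). Over the whole genome the lists held 13233 MC2580 and 21401 DMSO peaks.

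The study performed chromatin immunoprecipitation with sequencing (ChIP-seq) on V5-tagged GSE1, which the cells overexpressed from the lentiviral vector pLEX_307. These GSE1 cells were treated for 24 h with MC2580 at 2 µM or with the vehicle DMSO, and cells transduced with the empty vector (EV) gave a control V5 ChIP. Each of the 3 ChIPs and 3 matching inputs was 1 library, without replicates, and a difference between the peak lists is therefore a difference between these libraries. Both lists were called against the same EV library, and read depth was not given in the files used here.

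GSE1 is a subunit of corepressor complexes that also hold LSD1, CoREST proteins and histone deacetylases. LSD1 removes methyl groups from lysine 4 of histone H3 and is brought to chromatin by sequence-specific factors. In myeloid cells PU.1, RUNX, CEBP and AP-1 factors bind at enhancers and promoters of lineage genes, each at short recognisable DNA words.

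The centre sequences of the strongest MC2580-only peaks are shown first, because the groups of peaks differed in their DNA words as well as in their scores. Each line is the 200 bp at a peak's centre, from hg38, plus strand. Capitals mark matches to any of 12 words on either strand. The words were GAGGAAGT for PU.1, TGTGGTTT for RUNX, TGANTCA for AP-1, TTGCNNAA for CEBP, AGATAA for GATA, AATCANNGC for GFI1, CCGGAAGT for ETS factors, CACGTG (E-box), GGGCGGGG for SP factors, AGGTCA for retinoid and other nuclear receptors, TTCNNNGAA for STAT and the CTCF core. The PU.1 and ETS words share the letters GGAAGT. The highest score belonged to a peak on chromosome 21, followed by peaks over CLPS, in ANKRD30A and in TTC34. Of these 4 windows, 3 held no word and the window on chromosome 21 held a STAT word. Much of this sequence was repeated. Of all runs of 24 bases in each window, 0% occur once in the genome for chromosome 21 and 23.7% for TTC34. The values were 100% for CLPS and 76.3% for ANKRD30A.
chr21:7326492-7326691, intergenic: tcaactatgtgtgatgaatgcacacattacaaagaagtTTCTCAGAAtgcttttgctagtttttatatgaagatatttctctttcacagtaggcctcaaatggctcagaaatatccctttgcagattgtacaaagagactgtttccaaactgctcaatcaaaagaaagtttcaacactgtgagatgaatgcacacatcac
chr6:35795661-35795860, CLPS: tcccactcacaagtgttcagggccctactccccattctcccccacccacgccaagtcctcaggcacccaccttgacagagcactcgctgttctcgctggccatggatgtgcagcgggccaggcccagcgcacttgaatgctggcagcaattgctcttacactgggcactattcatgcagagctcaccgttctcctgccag
chr10:37158854-37159053, ANKRD30A: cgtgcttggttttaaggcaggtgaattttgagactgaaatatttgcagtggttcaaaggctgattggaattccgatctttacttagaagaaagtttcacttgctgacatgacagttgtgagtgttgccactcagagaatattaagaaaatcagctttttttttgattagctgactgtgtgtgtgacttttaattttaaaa
chr1:2655852-2656051, TTC34: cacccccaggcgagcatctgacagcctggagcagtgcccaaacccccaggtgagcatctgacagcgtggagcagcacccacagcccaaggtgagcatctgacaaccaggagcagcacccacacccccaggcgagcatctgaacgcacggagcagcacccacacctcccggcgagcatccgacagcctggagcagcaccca

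MC2580-only peaks with 3 different words were rare, and their highest-scoring examples show what such a centre looks like. The window on chromosome 17 held RUNX, nuclear receptor and STAT words, in repeated sequence where 0% of the runs of 24 bases occur once in the genome. The window in C4orf50 held CEBP, GATA and nuclear receptor words, the intergenic window on chromosome 16 held RUNX, CEBP and STAT words, and the window in PWWP2B held E-box, SP and STAT words.
chr17:23378558-23378757, intergenic: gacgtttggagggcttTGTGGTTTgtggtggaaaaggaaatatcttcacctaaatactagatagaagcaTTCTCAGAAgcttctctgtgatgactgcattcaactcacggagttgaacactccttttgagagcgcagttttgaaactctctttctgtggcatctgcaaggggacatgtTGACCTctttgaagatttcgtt
chr4:5998844-5999043, C4orf50: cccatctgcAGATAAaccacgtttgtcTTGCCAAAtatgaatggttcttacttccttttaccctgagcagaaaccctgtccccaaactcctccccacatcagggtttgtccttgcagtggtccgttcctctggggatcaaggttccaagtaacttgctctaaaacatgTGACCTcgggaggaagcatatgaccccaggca
chr16:22685566-22685765, intergenic: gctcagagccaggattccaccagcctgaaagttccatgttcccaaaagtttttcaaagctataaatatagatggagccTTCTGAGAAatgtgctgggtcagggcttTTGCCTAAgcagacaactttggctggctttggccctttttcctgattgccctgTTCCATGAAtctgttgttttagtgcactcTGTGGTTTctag
chr10:132411889-132412088, PWWP2B: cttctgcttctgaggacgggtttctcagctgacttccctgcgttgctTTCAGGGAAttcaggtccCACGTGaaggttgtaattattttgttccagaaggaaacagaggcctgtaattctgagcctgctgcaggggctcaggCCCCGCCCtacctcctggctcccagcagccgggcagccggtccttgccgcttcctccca

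For comparison, 2 overlapping peaks follow, chosen after the values were seen as those with most of the PU.1, RUNX, AP-1 and CEBP words. The first lies 39918 bp from the start site of RGS9 and the other 182513 bp from that of ZEB2, a zinc finger repressor. Their scores were 269.32 and 223.8.
chr17:65229040-65229239, near RGS9: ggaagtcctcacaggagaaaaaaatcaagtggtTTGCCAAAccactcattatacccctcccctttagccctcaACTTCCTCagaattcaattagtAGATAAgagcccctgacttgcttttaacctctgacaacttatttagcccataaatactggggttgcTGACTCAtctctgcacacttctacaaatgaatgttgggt
chr2:144703911-144704110, near ZEB2: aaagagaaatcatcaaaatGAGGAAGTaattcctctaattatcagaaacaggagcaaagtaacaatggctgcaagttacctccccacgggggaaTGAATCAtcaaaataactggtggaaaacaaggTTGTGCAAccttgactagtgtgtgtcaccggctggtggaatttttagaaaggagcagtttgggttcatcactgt

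MC2580-only peaks were weak. Every peak had a score in a column without a name. It was taken as minus 10 times the log10 of the p-value from the peak caller. On that reading the calling threshold of 1e-05 corresponds to a score of 50. The median score of the MC2580-only peaks was 57.01 (95% interval 56.43 to 57.74, n = 1575), and the scores ran from 50.04 to 194.99. The overlapping peaks had a median of 96.08 (92.94 to 98.99, n = 2401) and reached 3100, and the DMSO-only peaks had a median of 80.04 (78.96 to 81.09, n = 6874). Membership was set by the same peak calling that gave the scores, and these values are a description without a test.

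Strong members were few. A score of at least 100 was found in 59 MC2580-only peaks (3.75%, Wilson 95% interval 2.92 to 4.80) and in 1140 overlapping peaks (47.5%). The lowest score in the DMSO list was 51.59 against 50.04 in the MC2580 list, and 249 MC2580-only peaks (15.8%) scored below the lowest DMSO peak. The share of MC2580 peaks without a DMSO peak was 74.8% in the lowest score decile (50.04 to 52.04), 48.5% in the fifth and 23.9% in the seventh. In the ninth decile 10 of 397 peaks were MC2580-only, and in the highest decile, from a score of 228.8, there were 0 of 398, which allows a share of up to 0.956% (Wilson). Members were also narrower, with a median width of 761 bp (750 to 769) against 953 bp (945 to 962) in overlapping peaks. These intervals cover counting error alone, since peaks are not replicates.

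**Figure D1:**
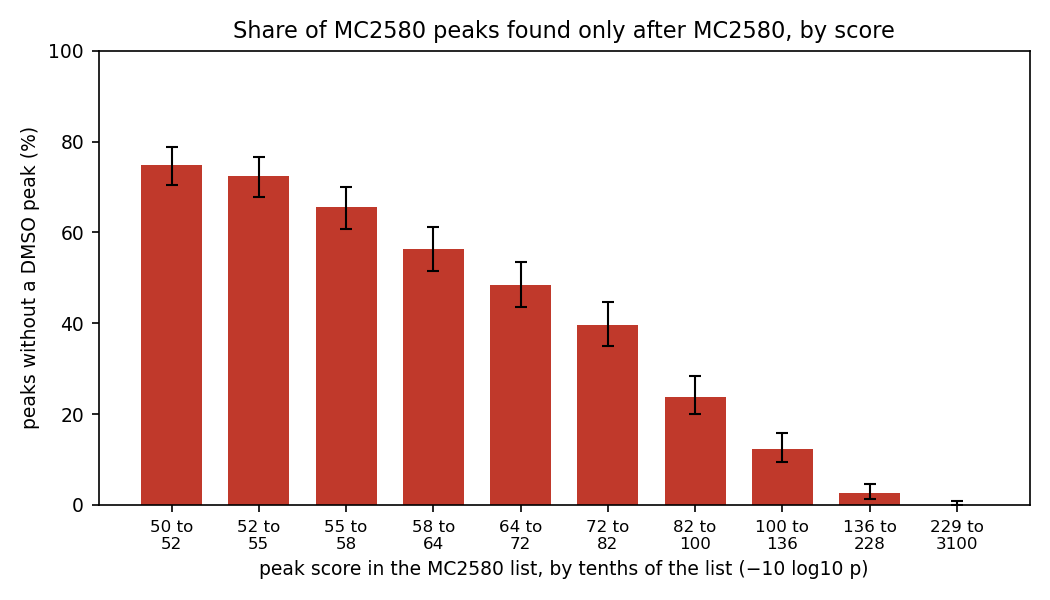
Bars give the percentage of MC2580 peaks without an overlapping DMSO peak (y axis) in each decile of the MC2580 list by score (x axis), with Wilson 95% intervals. The share fell from 74.8% in the lowest decile to 0% in the highest.

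Most MC2580-only peaks lay within 100 kb of a DMSO peak. The gap to the nearest DMSO peak had a median of 18932 bp (16691 to 21461). It was at most 1 kb in 128 peaks (8.13%), at most 10 kb in 602 (38.2%) and at most 100 kb in 1290 (81.9%). The DMSO-only peaks lay farther from the MC2580 list, which was the shorter of both lists, with a median gap of 67608 bp. At the edge of the rule, the members with the smallest gaps lay 6, 26 and 33 bp from a DMSO peak, in introns of DLG2, TBC1D14 and TTC34. The overlapping peaks with the smallest overlap shared 15, 15 and 17 bp, at a long non-coding RNA start on chromosome 21, at another on chromosome 5, and in LINC00993 on chromosome 10.

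A few members stood alone. The farthest lay 5536595 bp from any DMSO peak, in an intron of EPHA5, an ephrin receptor gene, at chr4:65416853-65417473, with a score of 50.84. The next lay 4957518 bp away at chr14:44391085-44392046, near a long non-coding RNA start, with a score of 75.85. The third lay 4251584 bp away at chr11:52308010-52308740, a stretch where 0% of the 24-base words of the centre window occur once in the genome, with a score of 65.94. In all, 18 members (1.14%) were more than 1 Mb from a DMSO peak.

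**Figure D2:**
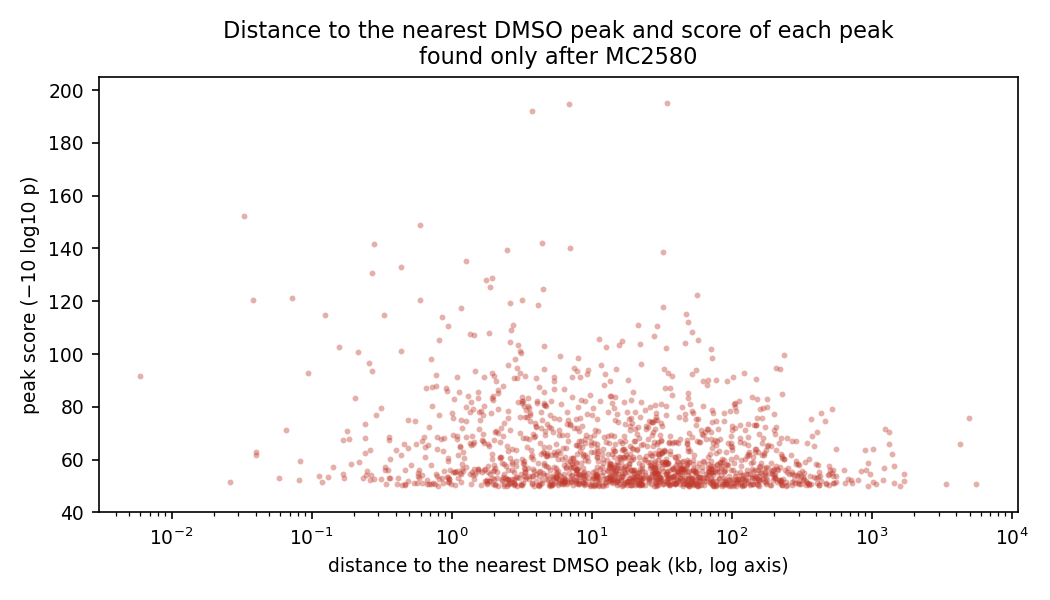
Each point is 1 of the 1575 MC2580-only peaks, placed by its distance to the nearest DMSO peak (x axis, kb, log scale) and its score (y axis). Most points lie between 1 and 100 kb and close to the calling threshold of 50.

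The peaks were unevenly spread over the genome. Chromosome 4 held 341 members (21.7% of all) and chromosome 10 held 333 (21.1%). On chromosome 4, 63.6% of MC2580 peaks had no DMSO peak (59.5 to 67.6, n = 536), whereas on chromosome 1 the share was 6.76% (4.14 to 10.8, n = 222) and on chromosome 3 it was 12.7% (7.97 to 19.6, n = 126). Chromosome X held 20 MC2580 peaks and no member, which allows a share of up to 16.1% (Wilson). Chromosomes 4 and 1 stood as far apart among peaks with a score under 100, with 71.5% on chromosome 4, 69.0% on chromosome 10 and 10.5% on chromosome 1. Members occurred in 531 of 2406 bins of 1 Mb, and 265 of these bins held a single member.

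The short arm tip of chromosome 4 was the densest stretch. Its bin from 2000001 to 3000000 held 40 members among 67 MC2580 peaks, beside 95 DMSO peaks, and the bin from 1000001 to 2000000 held 38 members among 69, beside 89 DMSO peaks. The 15 bins with most members held 304 of them (19.3%). In 1 Mb bins that held 40 peaks or more from the lists together, 44.7% of MC2580 peaks were members (41.3 to 48.1, n = 821), against 38.3% in the other bins (n = 3155). Within the chromosome 10 bin from 37000001 to 38000000, where 130 MC2580 and 131 DMSO peaks were called, 18 peaks were members.

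**Figure D3:**
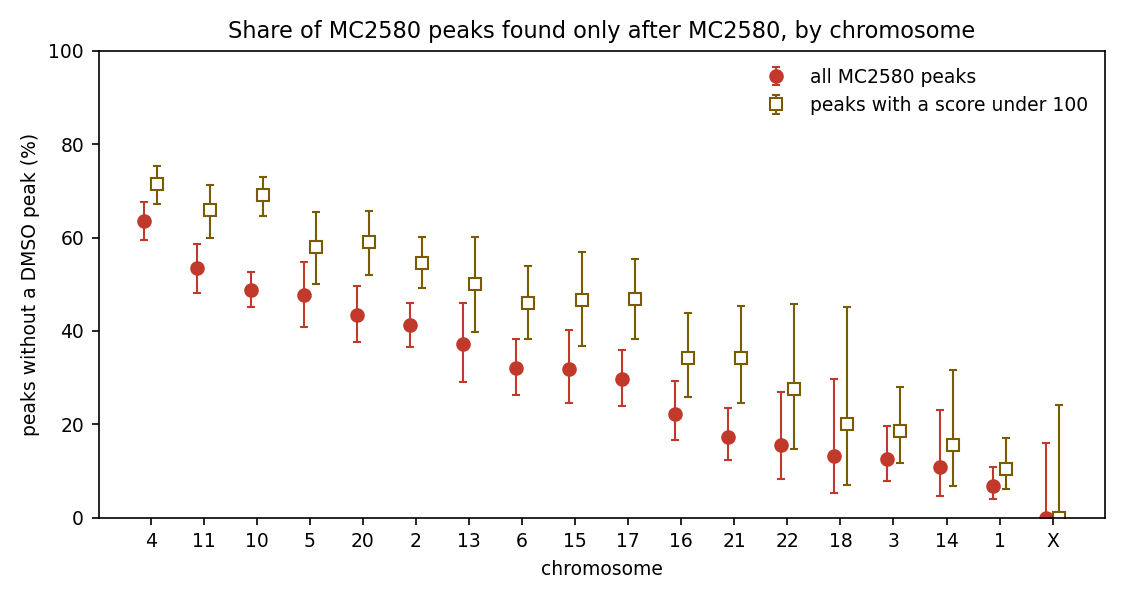
Points give the percentage of MC2580 peaks without a DMSO peak (y axis) on each chromosome (x axis), with Wilson 95% intervals, for all peaks (filled circles) and for peaks with a score under 100 (open squares). Chromosomes 4, 11 and 10 are highest, and chromosomes 14, 1 and X are lowest.

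The 10 highest-scoring members lay on chromosomes 21, 6, 10, 1, 18, 4 and 17. The first, at chr21:7325477-7327707, scored 194.99 and was intergenic, 3193846 bp from the nearest protein-coding start site, that of TPTE. The second, at chr6:35794606-35796916, scored 194.54 and covered the start site of CLPS, which encodes pancreatic colipase, with its nearest DMSO peak 6919 bp away. The third, at chr10:37158051-37159857, scored 192.03 and lay over an exon of ANKRD30A, a gene of breast epithelium, 3725 bp from a DMSO peak. The fourth, at chr1:2655378-2656526, scored 152.21 in an intron of TTC34, and its DMSO neighbour was 33 bp away.

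The remaining 6 of these members scored 138.66 to 148.87. They lay at chr21:10761174-10762593 and chr21:9727108-9728159, at chr18:79619221-79620541, in an intron of ZFYVE28 (chr4:2381045-2382782), in the promoter class at SH3TC1 (chr4:8211877-8213367), and at chr17:23378179-23379136. Repeated sequence was found in a larger share of strong members than of the other members, a difference that was not tested. Under 50% of the 24-base words of the centre window were unique in the genome in 15 of the 59 members with a score of at least 100 (25.4%, 16.1 to 37.8) and in 220 of the 1516 others (14.5%, 12.8 to 16.4). In overlapping peaks of any score the share was 16.0% (14.5 to 17.5, n = 2401), beside 14.9% of all members. How reads in such sequence were placed was not tested.

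At promoters of protein-coding genes, the next 5 strongest members were at CDH23, SH3TC1, ANTXRL, RNF4 and PIGG. CDH23 encodes a cadherin of inner-ear hair cells, and a peak with a score of 125.47 covered one of its annotated starts at chr10:71570168-71570967. The SH3TC1 peak at chr4:8238853-8239862 scored 119.28, and its centre window was a run of short CA-rich repeats without any of the 12 words. ANTXRL, a gene related to the anthrax toxin receptors, had its start covered at chr10:46296313-46297426 by a peak with a score of 114.78, 124 bp from a DMSO peak. RNF4, a SUMO-targeted ubiquitin ligase, had a peak with a score of 110.95 at chr4:2511822-2513077, over the start of an overlapping gene. PIGG, an enzyme of GPI-anchor synthesis, had a peak with a score of 107.81 at chr4:524058-525148, 217 bp from a start site. Each of these 5 peaks had a DMSO peak within 2724 bp.

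Relative to annotated genes, 485 members (30.8%) were in promoters (within 3 kb of a transcription start site, TSS), 106 (6.73%) over exons or untranslated regions, 515 (32.7%) in introns and 469 (29.8%) in distal intergenic sequence. Of the overlapping peaks 33.9%, 5.87%, 26.4% and 33.7% were in these classes, and of the DMSO-only peaks 39.8%, 6.24%, 31.0% and 22.9%. Intronic position was more frequent among members than among overlapping peaks (odds ratio 1.35, 95% interval 1.17 to 1.56, adjusted exact p = 6.23e-05) and distal intergenic position less frequent (0.833, 0.724 to 0.957, adjusted p = 0.0151). The promoter share did not pass the test (0.866, 0.754 to 0.995, adjusted exact p = 0.0621). All were two-sided Fisher's exact tests between peaks of 1 list, with Benjamini-Hochberg adjustment over 18 features, and they do not compare the treatments.

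The class differences depended on the score. Within score deciles, where weak members were compared with equally weak overlapping peaks, the promoter share was lower among members (Mantel-Haenszel odds ratio 0.710, 0.604 to 0.834, adjusted p = 8.84e-05, n = 3976). The intron ratio was then 1.15 (adjusted p = 0.153, n = 3976) and the distal intergenic ratio turned to 1.17 (adjusted p = 0.134). A TSS lay within the peak itself in 86 members (5.46%, 4.44 to 6.69), in 288 of the 2401 overlapping peaks (Wilson 10.8% to 13.4%) and in 907 DMSO-only peaks (13.2%, 12.4 to 14.0). Their median widths were 761, 953 and 925 bp, and the part of width in these shares was not tested. Of the 485 promoter members, 315 were nearest to the start of a protein-coding gene and 85 to that of a long non-coding RNA.

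The MC2580-only peaks had fewer myeloid factor words at their centres. At least 1 of the PU.1, RUNX, AP-1 and CEBP words was present in 254 MC2580-only centres (16.1%, 14.4 to 18.0), in 874 overlapping centres (36.4%, 34.5 to 38.3) and in 2425 DMSO-only centres (35.3%, 34.2 to 36.4). None of the 12 words was found in 862 members (54.7%) against 985 overlapping peaks (41.0%). At least 3 different words occurred in 23 members (1.46%) and 107 overlapping peaks (4.46%). A match is a description of the sequence and not a bound site.

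The RUNX word, bound by the core-binding factors of blood cells, had the lowest odds ratio of the 12 words. It was found in 25 of 1575 members (1.59%) and in 215 of 2401 overlapping peaks (8.95%), an odds ratio of 0.164 (0.103 to 0.250, Fisher's exact test, adjusted p = 1.15e-23). The DMSO-only centres held it in 7.10%.

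The word of PU.1, the ETS factor needed for myeloid development, was present in 22 members (1.397%) and 117 overlapping peaks (4.87%). This gave an odds ratio of 0.277 (0.166 to 0.441, adjusted exact p = 3.17e-09), and the DMSO-only share was 4.31%. The AP-1 word, bound by FOS and JUN dimers, was found in 5.52% of members and 12.3% of overlapping peaks (0.416, 0.321 to 0.535, adjusted exact p = 1.47e-12), beside 12.2% of DMSO-only peaks. The CEBP word was found in 8.44% and 17.8% (0.425, 0.343 to 0.524, adjusted exact p = 1.21e-16), beside 17.8% of DMSO-only peaks.

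The GATA word completed the 5 words that were less frequent among members, with 7.24% against 13.9% (0.483, 0.383 to 0.606, adjusted exact p = 1.29e-10), beside 10.1% of DMSO-only peaks. The same direction and call were obtained for these 5 words within score deciles, within quintiles of G+C content and within chromosomes. With a minimum score of 100 in both lists, 96 MC2580 peaks had no DMSO peak. They comprised the 59 members with such a score and peaks whose DMSO peak scored under 100. PU.1 words were present in 0 of these 96 peaks and in 47 of the 1103 that still overlapped, RUNX words in 2 and 105, and no word passed the adjusted test, while 3 words were lower at an unadjusted p under 0.05 (Fisher's exact test).

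A further 3 words were more frequent among members. The E-box word of MYC and related factors was present in 5.14% of members against 3.00% of overlapping peaks (1.75, 1.25 to 2.46, adjusted exact p = 0.00143). The nuclear receptor word was present in 15.4% against 10.9% (1.49, 1.23 to 1.80, adjusted exact p = 7.67e-05), and the CTCF core in 1.71% against 0.708% (2.45, 1.28 to 4.80, adjusted p = 0.00843). The DMSO-only centres held these 3 words in 3.70%, 14.2% and 1.19%. Within score deciles none of these 3 passed the adjusted test, with ratios of 1.46, 1.19 and 1.42, and the E-box word alone did at an unadjusted p under 0.05 (0.0446). The E-box word also did not pass without the dense bins (1.46, adjusted exact p = 0.1003). The words of GFI1, a repressor that brings LSD1 to chromatin (2.48% and 2.29%), ETS factors (0.190% and 0.541%), SP factors (1.14% and 1.75%) and STAT (6.29% and 7.71%) did not pass the test. In DMSO-only peaks the shares of these 4 words were 4.50%, 0.524%, 2.24% and 5.03%.

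**Figure D4:**
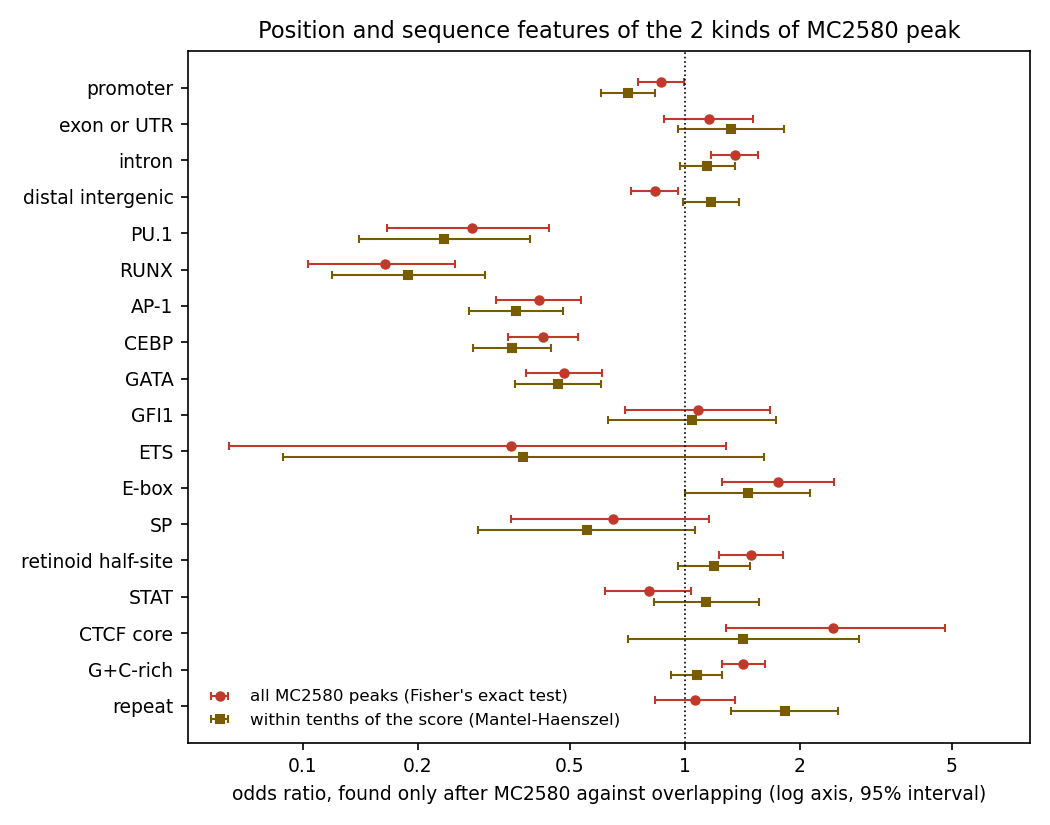
Points give the odds ratio of each class or sequence feature in MC2580-only against overlapping peaks (x axis, log scale) with 95% intervals, over all MC2580 peaks (circles) and within score deciles (squares). The PU.1, RUNX, AP-1, CEBP and GATA words lie left of 1 in both.

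The windows beside the peaks gave the local background. In windows 2000 bp to each side of the members, the PU.1 word was present in 1.37%, against 1.397% at the centres (odds ratio 1.02, 0.581 to 1.76). For RUNX the values were 1.21% and 1.59% (1.32, 0.761 to 2.26), for AP-1 5.68% and 5.52% (0.970, 0.737 to 1.27) and for CEBP 8.73% and 8.44% (0.964, 0.770 to 1.20). None of these 4 differences passed the test (adjusted exact p from 0.568 to 1 over the 12 words). All tests of centres against sides took the windows as independent and did not pair a centre with its own sides.

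The overlapping peaks carried the same words above their background. Their odds ratios of centre against sides were 4.05 (2.93 to 5.65) for PU.1, 5.80 (4.45 to 7.64) for RUNX, 2.53 (2.11 to 3.03) for AP-1 and 2.80 (2.40 to 3.27) for CEBP. For the DMSO-only peaks the ratios were 4.54, 5.63, 2.19 and 2.26. The GFI1 word was also above background in DMSO-only peaks (2.15, 1.82 to 2.53, adjusted exact p = 1.59e-19). It did not pass in overlapping peaks (1.13, adjusted exact p = 0.595) or members (1.13, adjusted exact p = 0.805). Side windows of the overlapping peaks held the RUNX word in 1.67% and the PU.1 word in 1.25%, close to the side windows of the members. At the members' centres the GATA word was less frequent than beside them (0.728, adjusted exact p = 0.0335) and the E-box word more frequent (1.57, adjusted exact p = 0.0335), and neither passed without the dense bins (adjusted exact p = 0.101 and 0.25).

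In steps of 200 bp across the members, the share of windows with a PU.1, RUNX, AP-1 or CEBP word ran between 14.3% and 17.4%, with 16.1% at the centre. The overlapping peaks rose from 14.5% at 2000 bp before the centre to 20.4% at 200 bp before it and 36.4% at the centre. Weak peaks showed the same contrast. Among peaks with a score under 60, these words were present in 17.4% of members (15.1 to 19.9, n = 933), 38.6% of overlapping peaks (34.0 to 43.4, n = 404) and 27.7% of DMSO-only peaks (25.6 to 29.9, n = 1615). Among peaks with a score of 80 and over, the shares were 12.4% (8.38 to 17.9, n = 186), 33.9% (n = 1481) and 40.8% (n = 3445).

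**Figure D5:**
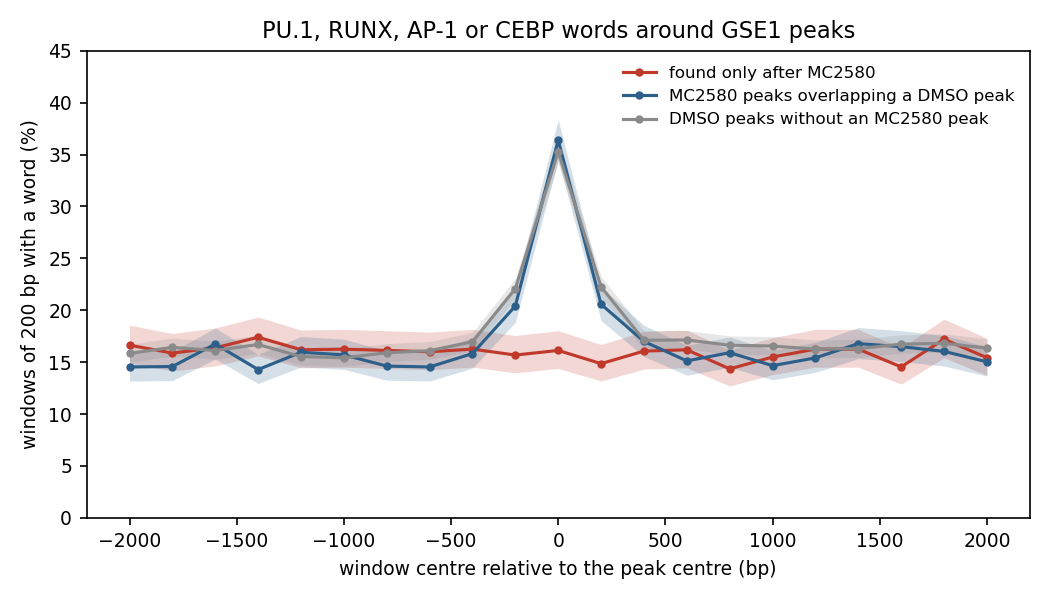
Lines give the percentage of 200 bp windows that hold a PU.1, RUNX, AP-1 or CEBP word (y axis) by distance from the peak centre (x axis, bp) in MC2580-only (red), overlapping (blue) and DMSO-only peaks (grey), with Wilson 95% bands. The red line stays between 14.3% and 17.4%, while the others rise to 36.4% and 35.3% at the centre.

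Among the members, the share with these words was given by distance from DMSO peaks, as a description. A PU.1, RUNX, AP-1 or CEBP word was present in 11.7% of the 128 members within 1 kb of a DMSO peak (7.23 to 18.4), in 14.1% of those at 1 to 10 kb, in 15.1% at 10 to 100 kb and in 23.9% of the 285 beyond 100 kb (19.3 to 29.1). The median G+C content of the centre window was lower in the last group (49.5%) than in the others (51% to 53%), and its part in these shares was not tested. Chromosome 4 members held such a word in 14.1%, chromosome 10 members in 11.4% and the members elsewhere in 18.6%.

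Base composition and repeats were compared in the same way. At least 50% of the bases of the centre window were G or C in 60.2% of members and 51.5% of overlapping peaks (odds ratio 1.42, 1.25 to 1.62, adjusted p = 2.26e-07, Fisher's exact test). Within score deciles the ratio was 1.07 (adjusted p = 0.422, n = 3976). Windows made mostly of 24-base words that occur at least 10 times in the genome were found in 8.13% of members and 7.66% of overlapping peaks (1.07, adjusted exact p = 0.667), and within score deciles the Mantel-Haenszel ratio was 1.82 (1.32 to 2.51, adjusted p = 0.000423, n = 3976).

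By gene, 732 of 15041 protein-coding genes on these chromosomes (4.87%) were touched by an MC2580-only peak, that is, a peak lay in the gene or within 3 kb of its ends. Overlapping peaks touched 987 (6.56%). Both kinds touched 181 genes, 24.7% of the first set and 18.3% of the other. A single member touched 583 of the 732 genes, and 15 genes held 5 or more. SORCS2, a receptor of the sortilin family with a length of 550 kb, held 10 members beside 1 overlapping peak. HTT, the huntingtin gene, and FAM193A held 8 members each, and ANKRD30A held 8 beside 19 overlapping peaks. The DMSO list held more peaks than members in each, with 14 in SORCS2, 13 in HTT, 17 in FAM193A and 22 in ANKRD30A. Only APBB2 among the 15 genes went the other way, with 6 members, 0 overlapping peaks and 4 DMSO peaks. Of these 15 genes, 10 lie on chromosome 4.

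Gene lists of the myeloid programme were read against the shares of all protein-coding genes, 4.87% for members and 6.56% for overlapping peaks. At the first share a list of 25 to 30 genes holds few touched genes, so that a count of 0 or 1 is near the background. Among 25 genes of myeloid differentiation and surface proteins, none was touched by a member and 4 (16%, beside 6.56%) by an overlapping peak (CD86, CD38, CSF1R and FCGR2A). Among 27 interferon response genes none was touched by either kind. Among 27 cytokine signalling genes none was touched by a member, and 4 (14.8%, beside 6.56%) were touched by overlapping peaks, namely IL1RN, CCL2, STAT3 and NFKBIA. Of 30 myeloid transcription factor genes, 1 (3.33%) was touched by a member, near the 4.87% of all genes, and 9 (30%, beside 6.56%) by overlapping peaks, among them CEBPE, GFI1, RUNX1 and IRF1. The touched factor gene was FLI1, an ETS factor, with an intronic peak of score 65.2 at chr11:128779902-128780638, 21796 bp from its start site and 24863 bp from the nearest DMSO peak.

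Of 19 genes of LSD1 and corepressor complexes, 3 (15.8%, beside 4.87% of all genes) were touched by members and 4 (21.1%, beside 6.56%) by overlapping peaks. GSE1 itself had an intronic member with a score of 92.53 at chr16:85315584-85316489, 52355 bp from a DMSO peak, beside 7 overlapping peaks. The construct carries GSE1 coding sequence, and this peak covered no annotated exon. SIN3A, the scaffold of a histone deacetylase complex, had a member over an exon with a score of 55.46 at chr15:75443212-75443993, 1389 bp from a DMSO peak. CTBP2, a corepressor that binds LSD1 complexes, had 2 members with scores of 52.34 and 50.16. The latter covered a start site of the gene at chr10:125161024-125161900, and both lay just above the calling threshold. These counts are small, and gene length was not taken into account.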

How the data were processed

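V5 ChIP-seq was measured in NB4 cells with 1 library per group. The authors mapped reads to hg38 with Bowtie, keeping unique matches. They used MACS to find peaks over input and EV ChIP at a p-value of 1e-05. How these backgrounds were combined is not given in the sources used here. The deposited values were 2 peak lists with a score per peak, whose names gave the condition. The score grows with depth, which was unknown, and its part in which weak peaks were called was not tested.

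The members and the gene and word lists were chosen with earlier results of these data known. Peaks overlapped when they shared 1 bp. Chromosomes 7, 8, 9, 12 and 19 were not analysed here. Classes followed GENCODE version 44 in the order promoter, exon or UTR, intron, distal intergenic. Words were counted on both strands of 200 bp windows at peak centres and 2000 bp to each side. Repeated sequence was read from counts of 24-base words on chromosomes 1 to 22, X and Y, since the reference was not soft-masked. Shares have Wilson and medians order-statistic 95% intervals. Fisher's exact tests were two-sided with Benjamini-Hochberg adjustment and a threshold of 0.05, and Mantel-Haenszel ratios were taken within score deciles. The highest decile, which held 0 members, did not enter these ratios. Peaks are not replicates, and no test between treatments was made. Alternatives comprised a minimum score of 100, other overlap and promoter rules, leaving out 1 Mb bins holding 40 peaks or more, leaving out the widest peaks, 400 bp windows, and strata of score or G+C content. Strata of chromosome, a minimum at the DMSO list's lowest score and leaving out chromosomes 4 and 10 were chosen after seeing the data.

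Regions named were the 10 highest-scoring members, the next 5 at coding promoters, the 3 farthest from and nearest to a DMSO peak, the 3 smallest overlaps, up to 5 touched genes per gene list, and the highest-scoring members with at least 3 words (4 of 5 are shown). The genes with most members were chosen after seeing the data. The functions were tested on simulated data. Tests used scipy 1.17.1 and statsmodels 0.14.6, and tables and sequences were read with pandas 2.3.3 and pysam 0.24.0 under Python 3.11.15.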

Additional observations from a re-analysis of the deposited data

How the results depend on the processing

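No paired analysis was possible because each condition had 1 library. Of 286 alternative values, 216 kept their direction and their side of the threshold or, for counts and shares, stayed close to the main value. The number, share and median score of MC2580-only peaks were 96, 8.01% and 114.74 with a score of at least 100 in both lists, 901, 32.7% and 56.26 without chromosomes 4 and 10, and 5512, 42.6% and 61.03 on all of chromosomes 1 to 22 and X. The share was 36.4% both when a DMSO peak within 1 kb counted as overlapping and above the lowest DMSO score, where the median was 59.33. Without dense bins the median was 56.38.

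The promoter odds ratio passed the test without dense bins (0.785), without the widest peaks (0.830), within score strata (0.710) and within 1 kb of a TSS (0.754), where the exon ratio also passed (1.34). With a score of at least 100 the ratios were 0.811 for exons, 0.783 for introns and 1.30 for distal peaks, all turned in direction, and with protein-coding TSSs the exon ratio was 0.879. The distal ratio no longer passed without dense bins (0.888), without the widest peaks (0.930), without chromosomes 4 and 10 (0.846) or within chromosomes (0.876), and turned within score strata (1.17), where the intron (1.15) and G+C (1.07) ratios no longer passed and the repeat ratio did (1.82). The G+C ratio was 1.14 at a score of at least 100, and the repeat ratio was 0.962 when a DMSO peak within 1 kb counted as overlapping. The cause was not tested.

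With a minimum score of 100 in both lists, where 96 MC2580 peaks had no DMSO peak (59 members and peaks whose DMSO peak scored under 100), 0 of 12 words were lower or higher in the adjusted Fisher's exact test (3 and 0 at an unadjusted p under 0.05), against 5 and 3 in the whole list. The ratios of GFI1 (0.918), STAT (1.06) and the CTCF core (0) turned direction there. The E-box word no longer passed without dense bins (1.46). GFI1 was 0.990 with the 1 kb rule and STAT 1.14 within score strata, where 0 words were higher (1 at an unadjusted p under 0.05). Against the side windows, 0 words were lower or higher at a score of at least 100 (0 and 0 unadjusted) or without dense bins (1 and 1 unadjusted), and ratios turned for AP-1 (1.45), CEBP (1.88), GFI1 (0.563) and STAT (1.12) in the first and for CEBP (1.09) in the other. Within 50 kb of the gene, members reached 1736 of all 15041 coding genes. They reached 1 of 25 myeloid surface, 5 of 30 transcription factor and 2 of 27 interferon genes. In the LSD1 and cytokine lists they reached 5 of 19 and 1 of 27 genes. These counts are small, and no list was tested against all genes. Repeats by lower-case sequence were not run, and depth was unknown.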
